A study of Mus musculus with 2 samples.

Results

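Interferon-stimulated genes encode the antiviral proteins, sensors and regulators that cells make when an interferon binds its receptor. A list of 42 of them was followed in precancerous mouse liver. Each gene was read by its brightest probe set, the one with the highest mean of both arrays, among probe sets that the platform annotation gives to that gene alone. Such a probe set was found for 40 of the 42 genes, of 18194 genes in all, and was bright enough to be counted as measured for 38, of 11693 measured genes. Isg15 had a single probe set that it shares with Gm9706, and no probe set of Ifi44 was named in the annotation used here, so neither has a value. Mx2 and Oas3 had a probe set below the filter on low signals.

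The arrays held liver RNA of Pik3caTg;Kdm3aKO mice and of Pik3caTg;Kdm3aWT mice, 1 array each, before tumours had formed. Mice of both genotypes had the hepatocyte-specific Pik3ca transgene, which switches on phosphoinositide 3-kinase signalling in these cells, so neither array shows liver without it. Kdm3a encodes a demethylase of histone H3 lysine 9, and the labels name no Cre line or tissue for its deletion. All mice ate regular chow, and the labels used here state no age, sex, strain or number of animals per array. The study asked what role Kdm3a has in the development of liver tumours.

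With 1 array per genotype there was no replicate check and no test, so every value describes these arrays and their number limits the precision. Kdm3a had a signal of 61.6 on the knockout array and 719.9 on the wild-type array, 11.7-fold lower, by its 1 probe set. It is not known here whether the deletion covers the bases that this probe set reads. Of 10 hepatocyte markers listed, 9 were measured, and all 9 were bright on both arrays and higher on the knockout array, from Ahsg, a secreted plasma protein (40999.5 on the knockout array and 36156 on the wild-type array), to Hpd, an enzyme of tyrosine breakdown (50886 on the knockout array and 25381 on the wild-type array). All 9 lie in the brightest of 5 bins of measured genes by mean signal. In that bin only 38.9% of all genes had a lower signal on the knockout array, and the median log2 ratio was 0.12. Both arrays had a trimmed mean of 500.004, and the ratio of 3′ to 5′ signal of the actin control was 1.99 on the knockout array and 1.85 on the wild-type array. The 3 probe sets for 18S ribosomal RNA were higher on the knockout array, by a mean log2 ratio of 0.86.

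In outline, virus RNA inside a cell is bound by RIG-I-like sensors, which switch on interferon genes. Type I interferons then bind the IFNAR receptor, whose kinases JAK1 and TYK2 activate a transcription factor complex that holds STAT2 and IRF9 and binds interferon-stimulated response elements in promoters. Interferon gamma acts through its own receptor and through gamma-activated sites. In liver, hepatocytes and Kupffer cells both respond to interferons, and a low level of many of these transcripts is present without infection.

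Most interferon-stimulated genes had lower signals on the knockout array. Of the 38 measured, 36 had a log2 ratio of knockout over wild-type signal below 0, where 52.2% of all measured genes did. At least 2-fold lower were 13 of the 38, or 34.2%, against a background of 8.96% of all measured genes, and 0 were at least 2-fold higher, against a background of 3.83%. The median log2 ratio of the 38 genes was -0.84, and that of all measured genes was -0.02. The quartiles were -1.09 and -0.50 for the 38 genes, and -0.38 and 0.28 for all measured genes. The differences were mostly moderate in size. At a 1.5-fold size, 25 of the 38 were lower, against a background of 17.4%, and more than 3-fold lower were 3, namely Oasl2, Ifit2 and Ifit3, against a background of 3.5%. Without the filter on low signals, 14 of 40 genes were at least 2-fold lower (background 6.32%), 0 were at least 2-fold higher (background 2.98%) and 38 had a ratio below 0 (background 39.8%). The ratios of the 38 genes had an SD of 0.539. As a measure of error within these arrays, probe sets that read the same gene had a pooled SD of 0.446, from 4958 genes.

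**Figure D1:**
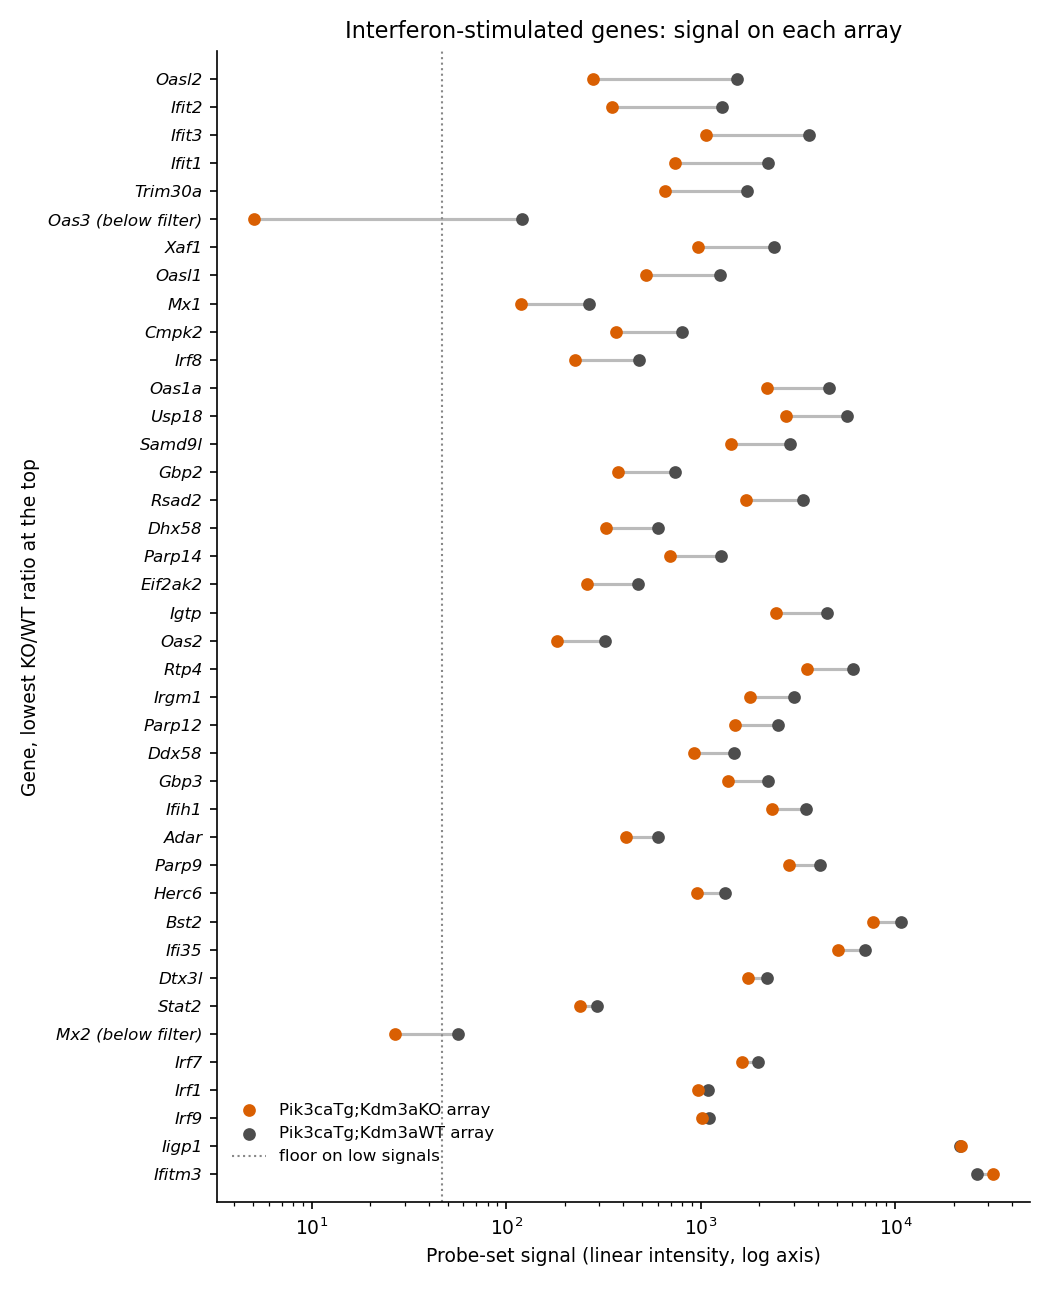
Signal of the brightest probe set of each of the 40 interferon-stimulated genes on the knockout array (orange) and the wild-type array (dark grey), on a log axis, ordered by their ratio. The orange point lies left of the dark grey point for 38 of 40 genes; Iigp1 and Ifitm3, at the bottom, are the exceptions, and Oas3 and Mx2 have a knockout signal below the floor (dotted line).

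The count of lower genes depended on how the arrays were scaled. After scaling to the poly-A control probe sets, 7 of 38 were at least 2-fold lower, namely Ifit1, Ifit2, Ifit3, Oasl1, Oasl2, Trim30a and Xaf1, against a background of 6.81% under that scaling. After scaling to the hybridisation controls, 19 of 38 were, against a background of 10.9%. The shift this puts on all genes was large for a call at 2-fold: the median over all measured genes became 0.15 with the poly-A controls and -0.16 with the hybridisation controls. The distance between the median of the interferon-stimulated genes and that of all measured genes was -0.82 as deposited, and it stayed between -0.84 and -0.76 under the other scalings, floors, filters and probe-set choices tried.

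The RIG-I-like sensors, helicases that recognise viral RNA in the cytosol, were lower without reaching 2-fold. Ddx58, the RIG-I gene, had a signal of 923 on the knockout array and 1474 on the wild-type array, a log2 ratio of -0.67. Ifih1, which encodes MDA5, a sensor of long double-stranded RNA, had 2313 on the knockout array and 3456 on the wild-type array (-0.58). Dhx58, which encodes LGP2, a regulator of both, had 324 on the knockout array and 606 on the wild-type array (-0.90). The probe sets of these genes did not all give the same answer. The dimmest kept probe set of Ddx58 had a ratio of 0.94, and another one of Dhx58 stood at 0.00, so that averaging all kept probe sets gave -0.18 for Ddx58 and -0.45 for Dhx58.

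Of the 5 listed transcription factors, 4 lay well within 2-fold and Irf8 lay past it. Irf9, the DNA-binding part of the type I interferon complex, had 1012 on the knockout array and 1099 on the wild-type array, a log2 ratio of -0.12. Its partner Stat2 had 240.4 on the knockout array and 292 on the wild-type array (-0.28). Irf7, which amplifies interferon production, had 1631 on the knockout array and 1961 on the wild-type array (-0.27). The factor Irf1, which interferon gamma induces, had 964 on the knockout array and 1085 on the wild-type array (-0.17). These 4 ratios lie between the quartiles of all measured genes, and under poly-A scaling Irf1 stood at 0.00 and Irf9 at 0.05. Irf8, a factor of macrophage, dendritic and B cells, was 2.14-fold lower, at 225 on the knockout array and 480.3 on the wild-type array. Its second probe set had a lower ratio still, -1.32. The 5 factors had a median of -0.27. Irf1, Irf7 and Irf9 were each read by a single probe set, with a name ending in _a_at. Names with that ending were among those left out in an alternative, where the median of Stat2 and Irf8 was -0.69.

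Conjugation of the ubiquitin-like protein ISG15 was represented by its protease Usp18, which also restrains the type I receptor, and by Herc6, the ligase that attaches ISG15 in mice. Usp18 had 2740.0 on the knockout array and 5674 on the wild-type array, 2.07-fold lower. Herc6 had 958 on the knockout array and 1339 on the wild-type array (-0.48), and its 4 kept probe sets ranged from -0.59 to 0.02. The E1 and E2 enzymes of the same conjugation, Uba7 and Ube2l6, stand on the list of further pathway genes and had ratios of -0.70 and -0.88.

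The IFIT genes, whose proteins bind foreign RNA and block its translation, were the group with the lowest median ratio. Of these, 3 of 3 were at least 2-fold lower, against 8.96% of all measured genes. Ifit2 had 351 on the knockout array and 1279 on the wild-type array, 3.64-fold lower. Ifit3 had 1063 on the knockout array and 3591 on the wild-type array, 3.38-fold lower, by a probe set that may also read the near-identical Ifit3b. Ifit1 had 739 on the knockout array and 2206 on the wild-type array, 2.99-fold lower. The knockout signal was thus 27.5% to 33.5% of the wild-type signal for these genes, a narrow range. They lie together on chromosome 19, with 0 protein-coding genes between Ifit2 and Ifit3 and 3 between Ifit3 and Ifit1 in RefSeq's order, and each was read by 1 probe set.

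The OAS family makes the short RNA messenger that activates RNase L, or, in the case of Oasl1, a protein without that activity. Oasl2 had the lowest ratio of all 38 genes, at 281 on the knockout array and 1542 on the wild-type array, 5.50-fold lower. Oasl1, its neighbour on chromosome 5, had 521 on the knockout array and 1253 on the wild-type array, 2.41-fold lower. Oas1a had 2185 on the knockout array and 4544 on the wild-type array, 2.08-fold lower, by a probe set that could also read its close relative Oas1g. All of these were read by 1 probe set each, so none has a repeat within the array. Oas2 was 1.76-fold lower, at 183 on the knockout array and 322 on the wild-type array. Of the 4 measured genes, 3 were at least 2-fold lower, against 8.96% of all measured genes. The median log2 ratio of the 4 was -1.16. Oas3, below the filter, had 5.05 on the knockout array and 120.5 on the wild-type array; with the knockout value raised to the floor of 46.5, it was at least 2.59-fold lower.

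Of the Mx genes, dynamin-like GTPases that block viral replication, Mx1 had 119 on the knockout array and 266 on the wild-type array, 2.24-fold lower. Many inbred mouse strains carry an inactive Mx1 allele, and the strain used here is not known. Mx2 had 26.7 on the knockout array and 56.2 on the wild-type array, so its wild-type value was just above the floor and its ratio is a bound of at least 1.21-fold lower.

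The GTPases known above all as targets of interferon gamma, which attack vacuoles that hold intracellular pathogens, were lower without reaching 2-fold, with 1 exception. Gbp2, a guanylate-binding protein, had 373 on the knockout array and 734 on the wild-type array, a log2 ratio of -0.98 that lies just inside the 2-fold line. Its second probe set was beyond that line, at -1.30. Gbp3, of the same family, had 1386 on the knockout array and 2207 on the wild-type array (-0.67). Igtp belongs to the immunity-related GTPases and had 2444 on the knockout array and 4474 on the wild-type array (-0.87). Irgm1, which regulates the other immunity-related GTPases, had 1797 on the knockout array and 3001 on the wild-type array (-0.74). These 4 genes lay close together, between -0.98 and -0.67. Iigp1, a GTPase of the same family, did not share it: its signals were 21797 on the knockout array and 21494 on the wild-type array, a log2 ratio of 0.02, and its second probe set had -0.09. That ratio turned negative, down to -0.19, with the arrays centred on their medians, after quantile normalization, after loess and under the hybridisation-control scaling.

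The double-stranded RNA proteins PKR and ADAR1 were also lower. Eif2ak2, the PKR gene, whose kinase stops translation, had 259 on the knockout array and 474 on the wild-type array (-0.87), but its 3 kept probe sets ranged from -0.87 to 0.63. Adar, which edits adenosine in double-stranded RNA, had 412 on the knockout array and 602 on the wild-type array (-0.55), and its other probe sets had negative ratios as well, up to -0.29.

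The 3 genes acting at membranes ranged from 0.28 to -0.78, and none reached 2-fold. Bst2, the tethering protein that holds budding virus at the cell surface, had 7644 on the knockout array and 10668 on the wild-type array (-0.48). Rtp4, named for its role in the transport of receptors to the surface, had 3527 on the knockout array and 6059.7 on the wild-type array (-0.78). Ifitm3, which blocks the fusion of virus with endosomes, was higher on the knockout array, at 31712 against 26189 on the wild-type array, a log2 ratio of 0.28. Its ratio stayed positive in every scaling tried, from 0.03 after quantile normalization to 0.45 with the poly-A controls.

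Rsad2, which encodes viperin, an enzyme that makes a chain-terminating nucleotide, had 1714 on the knockout array and 3349.8 on the wild-type array, 1.95-fold lower. Its 3 probe sets agreed closely, from -1.05 to -0.95. Cmpk2, a mitochondrial nucleotide kinase that lies beside it on chromosome 12, had 366 on the knockout array and 799.8 on the wild-type array, 2.19-fold lower, and its second probe set stood at -1.65.

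The PARP genes encode ADP-ribosyltransferases, and Dtx3l a ubiquitin ligase that pairs with PARP9. All 4 had ratios below 0, where 52.2% of all measured genes did, and none reached 2-fold. Parp14 had 693 on the knockout array and 1275 on the wild-type array (-0.88). Parp12 had 1496 on the knockout array and 2496 on the wild-type array (-0.74). Parp9 had 2839 on the knockout array and 4117 on the wild-type array (-0.54). The ligase partner of PARP9 had the smallest difference of the group. Dtx3l had 1752 on the knockout array and 2196 on the wild-type array (-0.33). Parp14, Dtx3l and Parp9 are direct neighbours on chromosome 16, and their ratios spread more widely than those of the IFIT cluster.

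Of the remaining genes, Trim30a, a regulator of inflammatory signalling, had 655 on the knockout array and 1719.5 on the wild-type array, 2.63-fold lower, with a second probe set at -1.29. Xaf1, which promotes cell death, had 963 on the knockout array and 2391 on the wild-type array, 2.48-fold lower. Samd9l, a growth-restraining antiviral protein, was just past the line, at 1424.0 on the knockout array and 2885 on the wild-type array, 2.03-fold lower. Those 3 genes lay past the 2-fold line. Ifi35, a partner of the protein NMI, had 5049 on the knockout array and 7020.1 on the wild-type array (-0.48). Its brightest probe set has a name ending that marks possible cross-matching, and the next one had a ratio of 0.01.

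**Figure D2:**
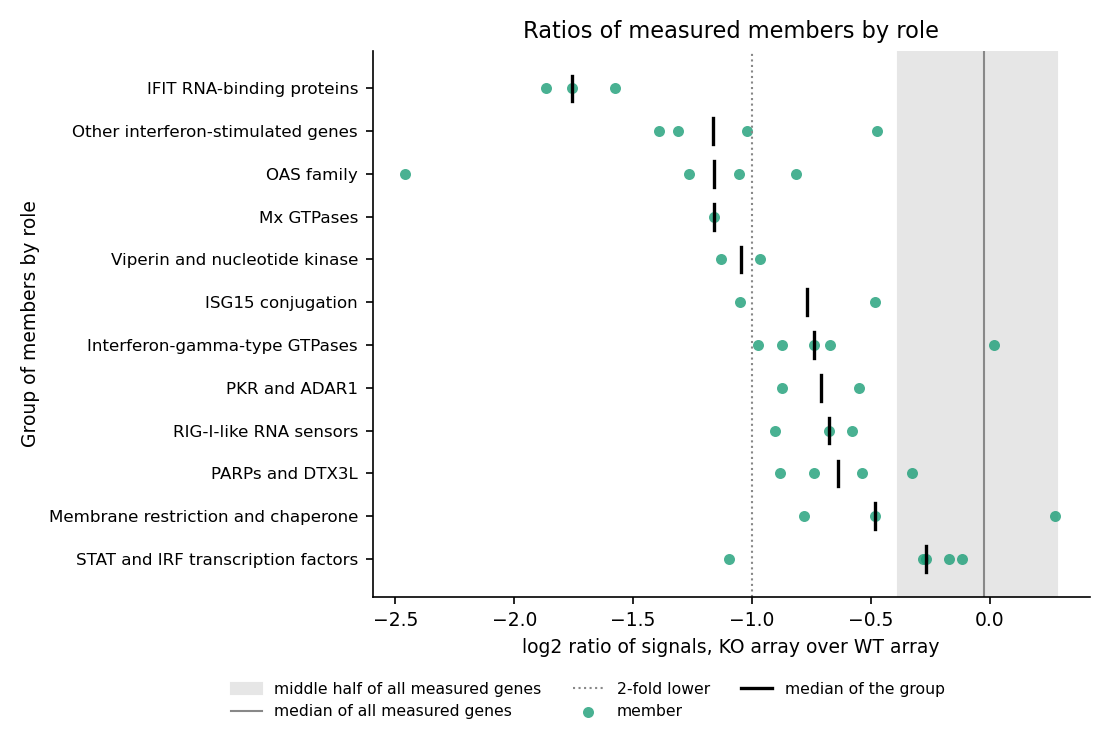
Log2 ratios of the 38 measured interferon-stimulated genes, grouped by role, with each group's median (black bar), the range between the quartiles of all measured genes (grey band, -0.38 to 0.28) and the 2-fold line (dotted). The IFIT genes lie farthest to the left with a median of -1.76, and 4 of the 5 transcription factors lie inside the grey band.

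Where a gene had several probe sets, they serve as repeat measurements within the arrays. Of the 38 genes, 15 had several kept probe sets, and for 10 of these every kept probe set went the same way. The 5 that went both ways were Ddx58, Eif2ak2, Herc6, Ifi35 and Iigp1. Over all 60 kept probe sets of the 38 genes, 54 had a ratio below 0, against 50.9% of all 19800 kept probe sets, and 19 were at least 2-fold lower, against 8.19%. These 60 include the 38 brightest probe sets already counted above, 36 of them below 0 and 13 at least 2-fold lower. The tally is thus in large part the same measurement. The pooled SD between probe sets of the same gene was 0.459 for the 15 genes.

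**Figure D3:**
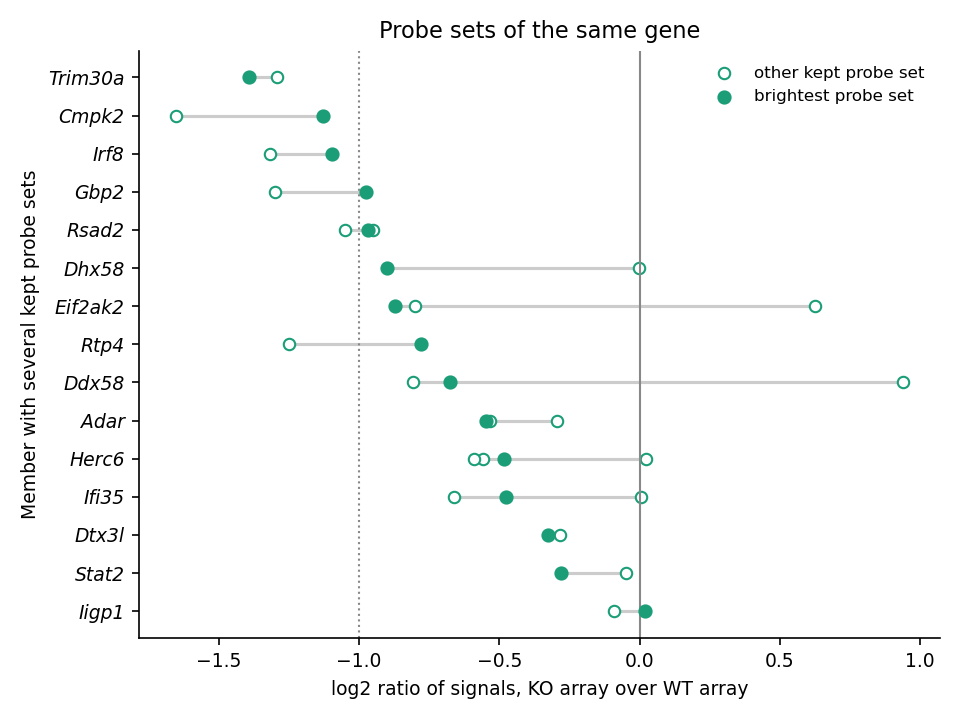
Log2 ratios of every kept probe set of the 15 interferon-stimulated genes with several, the brightest filled and the others open, with 0 (solid line) and the 2-fold line (dotted). Trim30a, Rsad2 and Dtx3l have probe sets close together, while those of Ddx58 and Eif2ak2 reach from below -0.80 to above 0.60.

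Ratios over all genes varied with brightness, so the interferon-stimulated genes were also set beside genes of similar signal. All measured genes were put into 5 bins of equal size by mean signal. In the brightest bin, 14 interferon-stimulated genes had a median log2 ratio of -0.76, while all 2339 genes of that bin had 0.12. In the next bin, 14 had a median of -0.71 and all genes had -0.03. The background of genes at least 2-fold lower was smallest in these bins, at 4.40% and 5.35%, and 4 and 5 of the interferon-stimulated genes in them were. The middle bin held 5 with a median of -0.98, and all its genes had -0.06. The bin below it held 5 with a median of -0.87, and all its genes had -0.13. The dimmest bin held 0. The lower ratios were thus present at each level of signal at which these genes were found.

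**Figure D4:**
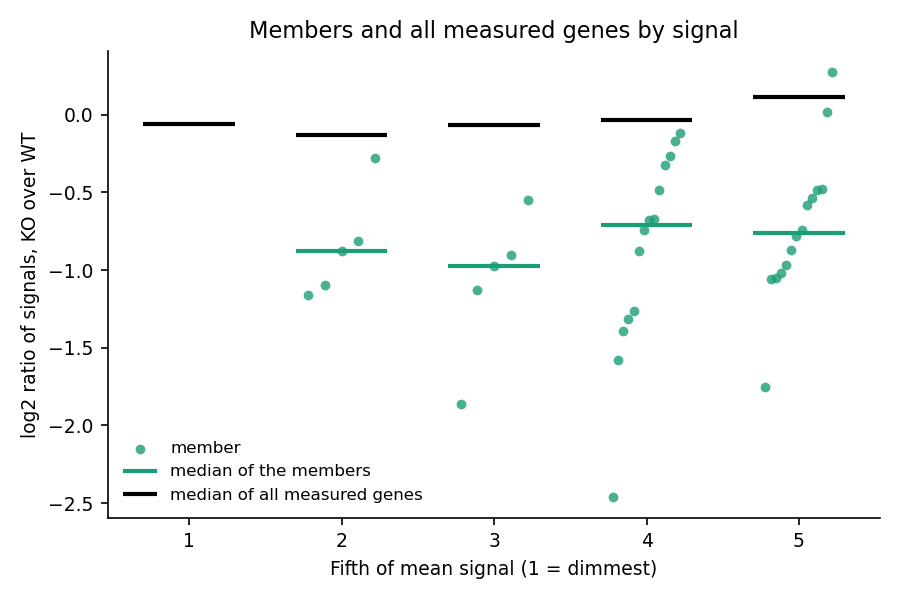
Log2 ratio of each measured interferon-stimulated gene by bin of mean signal, from 1 (dimmest) to 5 (green points; green bars, their medians), and the median of all measured genes in that bin (black bars). The green bars lie between -0.98 and -0.71 in the 4 bins that hold any, and the black bars between -0.13 and 0.12.

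The promoters of these genes are shown because the type I interferon complex acts through a short element that a reader can find in them. RefSeq's promoter table of build GRCm38.p6, with windows of 250 bases before to 50 bases after a start, held 33 of the 42 genes. The core of the interferon-stimulated response element was searched on both strands as GAAA, any 2 bases, and GAAA again, with overlapping matches counted singly. It was present in at least 1 window of 17 of the 33 genes, or 51.5%, and of 3.99% of all 27025 genes in the table. The gamma-activated site was searched as TTCNNNGAA, which reads the same on both strands, and was present for 10 of the 33 genes, or 30.3%, and for 9.55% of all genes. In the stretches below, read 5′ to 3′ on the strand of the gene and ending before the start, capitals mark the response-element core; TTTC in place of GAAA means that the match is on the other strand. Ifit3, Ifit1, Trim30a and Oas1a are among the genes at least 2-fold lower, Rsad2 lies near that line, and Bst2 (-0.48) and Stat2 (-0.28) lay well within it.
Ifit3, chr19:34583358-34583431, plus strand: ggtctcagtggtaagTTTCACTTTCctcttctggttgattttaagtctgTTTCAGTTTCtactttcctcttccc
Ifit1, chr19:34640770-34640828, plus strand: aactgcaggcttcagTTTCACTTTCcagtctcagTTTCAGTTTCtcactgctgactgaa
Trim30a, chr7:104465205-104465244, minus strand: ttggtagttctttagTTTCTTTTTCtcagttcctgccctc
Oas1a, chr5:120907526-120907560, minus strand: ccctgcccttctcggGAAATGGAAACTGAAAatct
Rsad2, chr12:26456548-26456587, minus strand: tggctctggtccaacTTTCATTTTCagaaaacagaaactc
Bst2, chr8:71537572-71537617, minus strand: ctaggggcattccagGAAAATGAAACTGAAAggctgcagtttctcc
Stat2, chr10:128270261-128270300, plus strand: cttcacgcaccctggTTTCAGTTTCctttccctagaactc

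The Ifit1 and Ifit3 stretches each hold 2 separate cores, at 85 and 104 bases before the start for Ifit1 and at 122 and 156 bases for Ifit3, counted to the farther end of each match. In Oas1a and Bst2 the 2 cores overlap, so that 3 GAAA-like blocks follow each other. The gamma-activated site of Bst2 overlaps its first core. A match did not sort the genes by their ratio. The 15 measured genes with a core had a median log2 ratio of -0.87 and 4 of them were at least 2-fold lower, and the 15 without one had a median of -0.74 and 7 at least 2-fold lower. Oasl2, Oasl1 and Ifit2, with some of the lowest ratios, had no core in these windows, and Ifitm3, with the highest, had 2 just after the start.

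**Figure D5:**
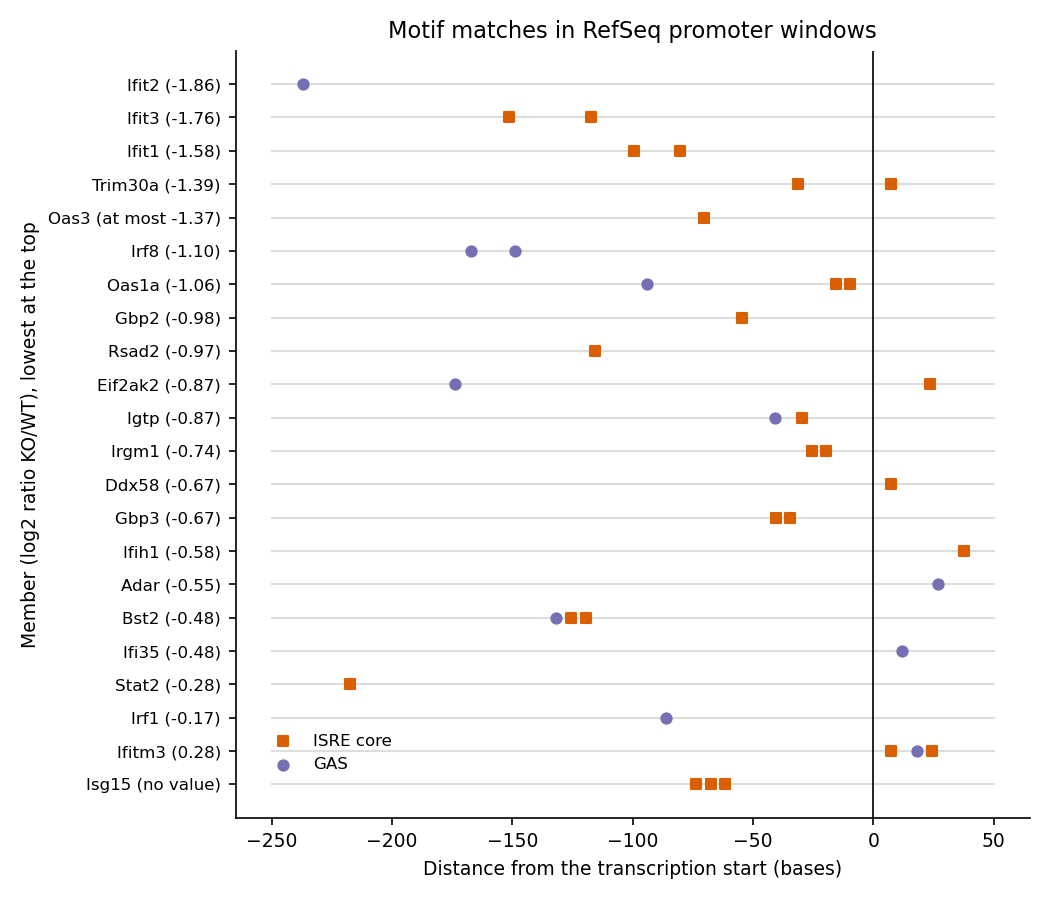
Positions of matches to the response-element core (squares) and the gamma-activated site (circles) relative to the transcription start, in bases, for genes with any match, ordered by log2 ratio from the lowest at the top. The genes shown with a value run from Ifit2 (-1.86) to Ifitm3 (0.28). Genes without a match, from Oasl2 (-2.46) to Irf9 (-0.12), are not drawn.

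Upstream of these genes, the interferons themselves were mostly too dim to be measured. Of 6 interferon genes with a probe set, 2 passed the filter and neither was lower on the knockout array: Ifna2 had 170 on the knockout array and 110 on the wild-type array (0.63), and Ifna1 had 116 on the knockout array and 99.0 on the wild-type array (0.23). Ifnb1 had 58.6 on the knockout array and 62.1 on the wild-type array, and Ifng, Ifna4 and Ifna5 were below the floor on both. The genes of the type I receptor hardly differed by their brightest probe sets, with log2 ratios of -0.10 for Ifnar1 and 0.07 for Ifnar2. Kept probe sets of Ifnar2 ranged from -0.34 to 0.07. The interferon gamma receptor was lower: Ifngr1 had 777 on the knockout array and 1168 on the wild-type array (-0.59), and Ifngr2 had 305 on the knockout array and 629 on the wild-type array, 2.06-fold lower. The second kept probe set of Ifngr2 lay within 2-fold, at -0.90. Il10rb, a chain shared by the receptors of interferon lambda and interleukin 10, was 2.23-fold lower, at 686 on the knockout array and 1531 on the wild-type array.

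The kinases Jak1 (-0.32), Jak2 (-0.25) and Tyk2 (0.05) lay within 2-fold. The kept probe sets of Jak1 ranged from -0.35 to 0.61, and the second one of Tyk2 was past 2-fold lower, at -1.31. The 5 measured feedback inhibitors lay within 2-fold too. Ptpn6, the phosphatase SHP-1 of blood cells, was nearest to that line at -0.98, but its second probe set had 0.50. Socs3 stood at -0.45, Ptpn11 at -0.27, Ptpn2 at -0.16 and Pias1 at 0.11. Of 15 measured sensors and adaptors that lead to interferon production, 5 were at least 2-fold lower and 0 higher, against the backgrounds of 8.96% and 3.83%. The 5 were the DNA-sensing adaptor STING, listed as Tmem173 (-1.23), the RNA-sensing receptors Tlr7 (-1.19) and Tlr3 (-1.05), Irf5 (-1.15) and the nucleic acid sensor Zbp1 (-1.14). The second probe set of Irf5 stood at 1.11. Irf2 (0.75), a repressor of interferon responses, and Traf6 (0.32), a signalling ligase, were the highest.

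Listed with the pathway, a further 52 measured interferon-stimulated genes outside the list of 42 had a median log2 ratio of -0.70. Of these, 47 were below 0, where 52.2% of all measured genes were. At least 2-fold lower were 14 of the 52 and 0 were higher, to be read against the same backgrounds of 8.96% and 3.83%. Slfn2, a regulator of T cell and macrophage quiescence, had the lowest ratio, at 188 on the knockout array and 1202 on the wild-type array (-2.68), followed by Ifi27l2a (-1.81). The others past 2-fold were Lgals3bp (-1.68), the exonuclease Isg20 (-1.66), Mlkl (-1.48), the executor of necroptosis, Plscr1 (-1.48), Ifi204 (-1.36), Slfn5 (-1.33), Epsti1 (-1.31), the inflammatory caspase Casp4 (-1.29), Ly6e (-1.23), the chemokine Cxcl10 (-1.11), Sp100 (-1.03) and Tor3a (-1.03). Another kept probe set lay within 2-fold for Slfn5 (-0.49), Ly6e (-0.19) and Tor3a (-0.18), while those of Plscr1, Epsti1 and Sp100 were all past it. The highest of the 52 genes were the immunoproteasome subunit Psmb10 (0.50) and Ifi203 (0.47). Among genes of antigen presentation on this list, Tap1 stood at -0.67, Psmb9 at -0.72, Psmb8 at -0.42 and B2m at 0.26.

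Markers of other cell types also differed between the arrays, and in bulk liver fewer cells of a type and less RNA per cell cannot be told apart. Markers of each cell type are counted as lower or higher at 2-fold, to be read beside 8.96% and 3.83% of all measured genes. All 11 measured markers listed for recruited macrophages were at least 2-fold lower, from Gpnmb (-4.12) to Ctss (-1.08). Their summed signal was 17734 on the knockout array and 46080.4 on the wild-type array. Resident macrophages also make C1qa, C1qb, Ctss, Cd68 and Lyz2 of this list, so the sum is not that of recruited cells alone. Of 7 resident macrophage markers, the 4 above the floor on both arrays lay within 2-fold and on both sides of 0, namely Adgre1 (-0.56), Cd5l (-0.28), Clec4f (0.73) and Vsig4 (0.84). The other 3 were Marco (at least 6.01-fold higher), Timd4 (at least 4.86-fold higher) and Cd163 (at least 23.9-fold higher). These 3 were below the floor on the wild-type array and passed the filter through the knockout array alone. By the 2-fold count, 3 of the 7 were thus higher and 0 lower. The sums of the 7 were 18101 on the knockout array and 14539 on the wild-type array. The 4 resident markers above the floor on both arrays gave no common direction. Among 7 T and NK cell markers 3 were lower, from Klrd1 (-1.63) to Gzma (0.80), with sums of 751 on the knockout array and 988 on the wild-type array. All but Gzma lie in the dimmest bin of signal, where 14.8% of all genes were at least 2-fold lower. Of the 3, Thy1 (49.0) and Nkg7 (58.3) were near the floor on the knockout array. Kept probe sets of Cd8a ranged from -1.33 to 0.64. Markers of plasmacytoid dendritic cells, known as strong interferon producers, had Siglech and Ccr9 below the filter, and their sum of 1471 on the knockout array and 10935 on the wild-type array came mostly from Ly6d (-4.66), which other cells also make; Klk1 (0.06) was highest. Conventional dendritic cell markers had 0 of 3 past 2-fold, from Cd209a (-0.77) to Zbtb46 (0.61), with sums of 317 on the knockout array and 313 on the wild-type array, and with Xcr1 and Flt3 below the floor on both.

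Among 5 B and plasma cell markers, 1 was lower, Cd22 (-1.57), and 2 were higher, led by Ighm (3.44), with sums of 2132 on the knockout array and 811 on the wild-type array. The knockout sum came mostly from the brightest probe set of Ighm, at 1371, and the 5 kept probe sets of that gene ranged from 0.19 to 3.44. Of 3 neutrophil markers, 2 were lower, from S100a9 (-2.18) to Csf3r (0.52), with sums of 764 on the knockout array and 2135 on the wild-type array. B cells make antibody and neutrophils are early inflammatory cells; both groups had few measured markers. Stellate cell and fibroblast markers were lower in 7 of 10 cases, from Col3a1 (-3.56) to Reln (0.03), with sums of 16134 on the knockout array and 35716 on the wild-type array. All 6 measured cholangiocyte markers were lower by their brightest probe sets, from Cd24a (-3.40) to Sox9 (-1.06), with sums of 880.2 on the knockout array and 5992 on the wild-type array. Other kept probe sets reached 0.69 for Tspan8 and -0.08 for Epcam, while those of Cd24a and Sox9 were all past 2-fold lower. Most markers listed for bile duct and scar-forming cells thus had lower signals on the knockout array, by their brightest probe sets. By the 2-fold count, 1 of 10 endothelial markers was lower, near the background of 8.96%. Smaller differences went mostly the same way: 9 of the 10 had a ratio below 0, where 52.2% of all measured genes did. Their median log2 ratio was -0.43. The 10 markers ranged from Vwf (-1.20) to Clec4g (0.41), with sums of 8354 on the knockout array and 9450.3 on the wild-type array. Kept probe sets of Egfl7 ranged from -0.70 to 0.76. The part of any of these cells in the lower signals of the interferon-stimulated genes was not tested.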

How the data were processed

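Total RNA of liver was made into biotin-labelled cRNA for Affymetrix arrays, per the labels' protocols. The deposited values are probe-set intensity signals on a linear scale; the submitters' processing notes name MAS5, with no version or settings. Detection calls were not used here. The table held 45101 probe sets, 64 of them controls; the platform annotation gave 34945 to 1 gene and 932 to several, and 9160 were not named. All 42 listed genes had a RefSeq gene identifier, from a table of assembly GRCm38.p6 used for names, gene order and promoters.

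Signals below 46.5, the 40th percentile of all values, were raised to that floor, and a ratio with a raised value is a bound. A gene was measured if the mean signal of its brightest probe set was at least 73.7, the median of the means of all probe sets other than controls. Knockout signal was divided by wild-type signal and log2 was taken; genes were counted at a 2-fold size. No test was possible with single arrays. Control probe sets entered no count. The code was tested on simulated data. Python 3.11.15, pandas 2.3.3 and statsmodels 0.14.6 were used.

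The genes and lists were chosen with earlier results of these data known. Named were all listed genes, the measured receptors, kinases and inhibitors of the pathway, those past 2-fold and the 2 highest and lowest of its longer lists, and the highest and lowest marker of each cell type. Uba7, Ube2l6, Tap1, Psmb8, Psmb9 and B2m were added after their values were seen, as were Siglech, Ccr9, Xcr1 and Flt3 for their low signal and all resident macrophage markers. Alternatives were 5 other scalings, 3 floors, 2 filters, 2 probe-set choices and 2 size rules.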

Additional observations from a re-analysis of the deposited data

How the results depend on the processing

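No paired analysis was possible because each genotype had 1 array, and no array could be left out. The number of interferon-stimulated genes at least 2-fold lower was 13; it was 7 under poly-A control scaling, and 25 at a 1.5-fold and 3 at a 3-fold rule. Their median log2 ratio of -0.84 was -0.97 under hybridisation control scaling and -0.67 under poly-A control scaling, which moved the median of all measured genes to -0.16 and 0.15. Of the 82 other pathway genes, 21 were at least 2-fold lower, against 13 under poly-A control scaling, 46 at 1.5-fold and 4 at 3-fold, where the shares of all measured genes were 8.96%, 6.81%, 17.4% and 3.5%, so that the 3-fold count is near its background; 0 were at least 2-fold higher, against 2 at 1.5-fold. Their median of -0.67 was -0.80 and -0.50 under the hybridisation and poly-A scalings. The other alternatives kept these counts within 1.5 times and these medians within 0.1, yardsticks chosen for this comparison. Of 446 single-gene values under alternatives, 442 moved by less than the SD between probe sets. The exceptions were Ddx58, Dhx58 and Eif2ak2 with all kept probe sets averaged, and Ifi35 without probe sets ending in _s_at, _x_at, _a_at or _f_at (0.01). Among the marker and ligand lists, leaving out probe sets with these endings turned the median of conventional dendritic cell markers to 0.18 and that of B and plasma cell markers to -0.22. A higher floor or no filter put 5 medians at 0, since values on the floor have no difference. The cause of the other changes was not tested. Without probe sets of these endings 30 genes were left, 9 of them at least 2-fold lower. Signals near or below the floor, such as those of Mx2, of Oas3 on the knockout array and of Ifnb1, limit what can be read.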
